A study of Homo sapiens with 9 samples.

Results

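CRYM encodes mu-crystallin, a cytosolic protein that binds the thyroid hormone triiodothyronine (T3) in the presence of NADPH and that also acts as a ketimine reductase. It is described here with 6 genes of thyroid hormone signalling: the nuclear receptors THRA and THRB, the deiodinases DIO1 and DIO2, and the retinoid X receptors RXRA and RXRB. These 7 genes were picked by symbol from 11963 genes that a probe set of the array named alone, and 2 of the 7, CRYM and RXRA, were bright enough to be tested, of 4368 genes in all. CRYM was chosen because its level had been seen to fall in these arrays, so its differences from untreated cells are given as a description with no test. The other 6 genes were chosen for their roles, with earlier results of these data known.

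Thyroid hormone enters cells through membrane transporters. DIO1 and DIO2 are selenoenzymes that turn the prohormone thyroxine into T3, and the related enzyme DIO3 inactivates both hormones. T3 binds THRA or THRB, which sit on DNA mostly as heterodimers with a retinoid X receptor. Without hormone these receptors hold a corepressor complex, and hormone exchanges it for coactivators. In the kidney, T3 is known for raising sodium transport in the proximal tubule, and DIO1 is a known T3-induced gene.

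The cells were HK-2, an immortalised human proximal tubule epithelial line, and every group came from this 1 line. The groups were untreated cells at 0 h, cells given transforming growth factor β1 (TGFβ1) for 24 h and cells given TGFβ1 for 48 h, with 3 arrays each. The study's design text calls the control vehicle, whereas the sample labels call it untreated. Per the labels' treatment protocol the experiment was done on 3 different days with plates of a time point pooled each time, and the design text names consecutive passages of cells. Arrays of 1 replicate number are called a run here; that a number marks 1 day is inferred from their shared deviations. The maintenance medium of all groups contained T3 at 4 pg/ml, hydrocortisone at 36 ng/ml, epidermal growth factor (EGF) at 10 ng/ml and a supplement of insulin, transferrin and selenium. The sources used here do not say whether it was kept during TGFβ1 exposure or what TGFβ1 dose was given. Without a time-matched untreated culture among the 9 arrays, TGFβ1 and time in culture cannot be told apart. In bulk RNA, fewer cells expressing a gene and less of its RNA per cell cannot be told apart either.

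Values are deposited log2 values of 1 probe set on a 1-colour Affymetrix array. The array medians lay between 2.2 and 2.23. A probe set whose mean in every group stayed within 1 log2 unit of the median of 2.21, that is at 3.21 or below, is called background here. A gene was tested where its brightest probe set reached a log2 value of 4 on at least 3 of the 9 arrays, which 4368 genes did. Values of different probe sets are not comparable with each other, since each set has its own probes. Of 8 proximal tubule markers, 7 were background in all groups, among them LRP2, CUBN and AQP1, and only PAX8, a renal lineage transcription factor, was tested. PAX8 had means of 7.37, 6.77 and 6.56 at 0, 24 and 48 h and fell at both times (limma, a linear model over all tested genes; adjusted p = 0.0233 and 0.00496). Of 17 markers of endothelial, blood, stromal, podocyte and distal nephron cells, 16 were background. LUM, a stromal proteoglycan gene, was the exception (means 6.48, 6.11 and 6.82), and the collagen gene COL1A1 stayed in the background range with means of 1.73, 3.08 and 2.84. The summed log2 values of all 17 markers, LUM included, lay at 29.6 to 32.5 in untreated cells, 31.1 to 32.7 at 24 h and 30.0 to 32.1 at 48 h. The TGFβ-induced genes SMAD7, PMEPA1 and TGFBI all rose at both times. At 0, 24 and 48 h PMEPA1 had means of 2.43, 5.12 and 4.90, and SMAD7 of 3.59, 5.20 and 5.28. Their untreated means lay below the filter value of 4, so their presence among the tested genes is tied to the rise. TGFBI had means of 8.19, 10.77 and 10.81. The part of cell type in the results below was not tested.

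CRYM, on chromosome 16, was read by 1 probe set. Untreated cells had log2 values of 7.36, 6.38 and 5.40 in runs 1, 2 and 3. Cells at 24 h of TGFβ1 had 3.69, 2.89 and 2.50, and cells at 48 h had 3.32, 2.33 and 2.27. All 6 treated arrays lay below all 3 untreated ones, and 4 of the 6 were at or below 3.21, the limit of background. The group means at 0, 24 and 48 h were 6.38 ± 0.98, 3.03 ± 0.61 and 2.64 ± 0.59 (SD, n = 3 each).

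Within runs, CRYM was lower at 24 h than in untreated cells by log2 differences of −3.66, −3.49 and −2.90, a mean of −3.35 with an SD of 0.40 between runs (10.2-fold). At 48 h the differences were −4.03, −4.06 and −3.13, a mean of −3.74 with an SD of 0.53. Because the treated values end near background, these folds may be compressed. CRYM passed the filter through exactly 3 arrays, the untreated ones, so its presence among the tested genes is itself tied to the difference.

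The 48 h and 24 h arrays were also compared, a contrast that CRYM was not chosen by. The level at 48 h was lower than at 24 h in 3 of 3 runs, by −0.37, −0.56 and −0.23 (mean −0.39, SD 0.17). In limma without the run the difference was not past the threshold (adjusted p = 0.855, SE 0.498, 95% interval −1.51 to 0.73). That interval includes the spread between runs. With the run as a block the SE was 0.186, and limma gave an unadjusted p of 0.0702 and an adjusted p of 0.347. With 4 of these 6 values at or below the limit of background, a further fall could hardly be measured. These p values therefore say nothing of the second day of exposure. None of the 4368 genes passed in this contrast (percent called 0), with or without the block.

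The starting level of CRYM differed between runs more than that of most genes. Its SD over the 3 untreated arrays was 0.976, rank 26 of 4368 tested genes, whereas the median gene had 0.25. The offset of a run was shared by its arrays: averaged over the 3 times, runs 1, 2 and 3 were offset from the group means by 0.77, −0.15 and −0.62. Run 1 had the highest CRYM value at each of the 3 times and run 3 the lowest. These offsets include treated values at background.

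**Figure D1:**
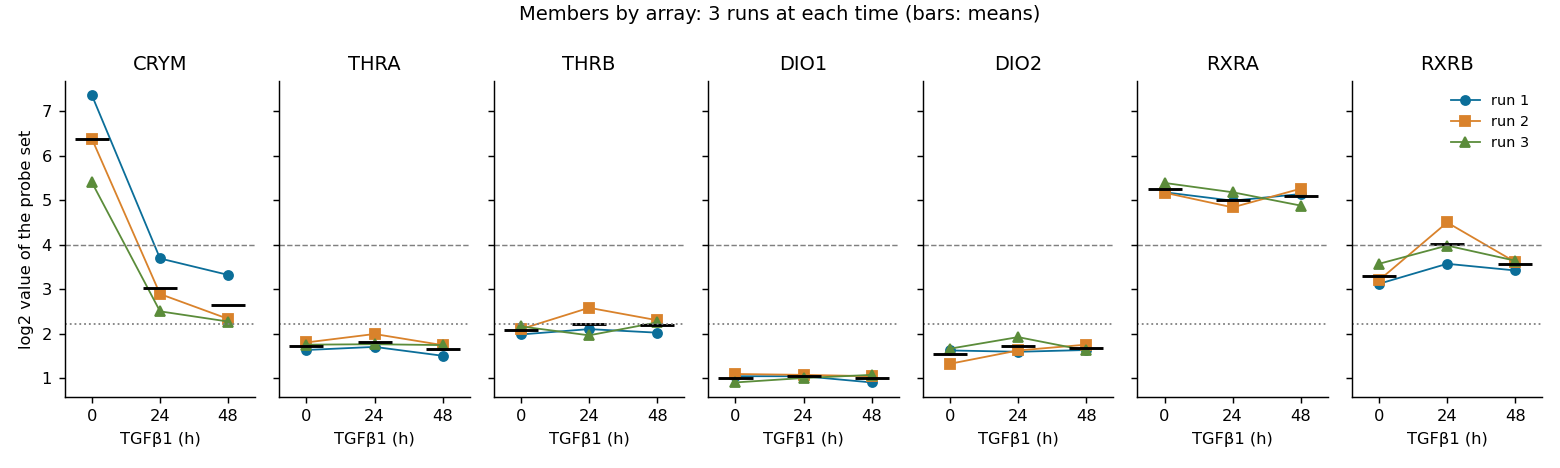
The log2 value of the probe set that stands for each gene (vertical axis) at 0, 24 and 48 h of TGFβ1 (horizontal axis), with a point and line for each of 3 runs and a bar for each group mean. The dotted line is the array median of 2.21 and the dashed line the filter at 4; the treated CRYM values, 2.27 to 3.69, lie near the median, against 5.40 to 7.36 in untreated cells.

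The hormone receptors themselves stayed at background. THRA encodes thyroid hormone receptor alpha, and its brightest probe set had 1.63, 1.80 and 1.75 in untreated cells, 1.70, 1.99 and 1.76 at 24 h and 1.5, 1.74 and 1.74 at 48 h. Its other 3 probe sets ranged from 1.12 to 2.14 over all arrays. Another 3 probe sets list THRA together with NR1D1, which overlaps it, and were not used. None of the 4 THRA probe sets reached a log2 value of 4 on any array. The mean differences of the brightest set from untreated cells were 0.09 at 24 h and −0.07 at 48 h (two-sided exact permutation p = 0.5 for both). With 3 arrays against 3 such a test cannot go below 0.1, and it does not pair the arrays of a run. Another, dimmer set was higher at 24 h without overlap, by a mean of 0.14 (exact permutation p = 0.1). How many of all probe sets separate in this way was not counted.

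THRB, which encodes thyroid hormone receptor beta, was read by 1 probe set. It had 1.98, 2.10 and 2.16 in untreated cells, 2.10, 2.58 and 1.96 at 24 h and 2.02, 2.30 and 2.25 at 48 h. The groups overlapped at both times. The mean differences from untreated cells were 0.14 at 24 h (exact permutation p = 0.9) and 0.11 at 48 h (exact permutation p = 0.3).

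The deiodinases were also background on every probe set. DIO1 lay between 0.90 and 1.09 on all 9 arrays, with means of 1.01, 1.04 and 1.01 at 0, 24 and 48 h. DIO2, the enzyme that makes T3 inside the cell, had 1.62, 1.32 and 1.66 in untreated cells, 1.59, 1.62 and 1.92 at 24 h and 1.63, 1.75 and 1.62 at 48 h on its brightest probe set. The other 3 DIO2 probe sets ranged from 0.89 to 2.18. On 2 of these the 24 h arrays lay at or above all untreated arrays, by means of 0.41 and 0.26 (exact permutation p = 0.1 for both, the smallest p that 3 against 3 allows). On the second of them both groups touched at 1.32. On the brightest DIO2 set the groups overlapped at 24 h (mean difference 0.18, exact permutation p = 0.6). The share of all probe sets that separate in this way was not counted, so these differences are not read as changes. All of these values stay under 3.21, where low expression and background cannot be told apart.

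The promoter of DIO1 is shown because it was the only window among the members that held a nuclear receptor half-site, AGGTCA, the letters that thyroid hormone receptors and their relatives are known to bind. Promoter windows of 250 bases before to 50 after the start came from RefSeq (GRCh38.p14). They matched 6 of the 7 members, in 10 windows; CRYM had no entry. The window of DIO1 is chr1:53893937-53894236 on the plus strand, and capitals mark the half-site, on the reverse strand as TGACCT, whose first base lies 105 bases upstream of the start.
DIO1: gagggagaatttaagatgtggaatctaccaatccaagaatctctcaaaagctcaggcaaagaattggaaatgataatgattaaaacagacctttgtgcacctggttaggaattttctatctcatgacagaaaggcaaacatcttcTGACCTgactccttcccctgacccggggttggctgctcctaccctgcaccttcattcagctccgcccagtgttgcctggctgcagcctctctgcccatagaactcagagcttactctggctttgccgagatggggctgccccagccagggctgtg
The motif was searched on both strands and was present in 13.8% of all 35116 windows of this length. A match is a description of letters and not a measured binding site.

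RXRA, the retinoid X receptor alpha that pairs with THRA and THRB, was the other gene of the 7 to pass the filter, and it did so on all 9 arrays. Its values were 5.18, 5.17 and 5.39 in untreated cells, 4.99, 4.84 and 5.18 at 24 h and 5.14, 5.26 and 4.88 at 48 h. At 24 h it was lower in 3 of 3 runs, but the groups overlapped. The difference was −0.24 ± 0.153 (SE) at 24 h (limma, adjusted p = 0.505, unadjusted p = 0.143, 95% interval −0.59 to 0.10). At 48 h it was −0.15 (adjusted p = 0.786, 95% interval −0.50 to 0.19). Its second, dimmer probe set ran between 3.07 and 3.69 and was higher in 3 of 3 runs at 24 h, by a mean of 0.15 (exact permutation p = 0.5), so the 2 sets differed in sign.

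RXRB encodes retinoid X receptor beta, and its brightest probe set lay just outside the filter with 1 of 9 arrays at 4 or above, whereas CRYM lay just inside with 3. RXRB had 3.12, 3.20 and 3.57 in untreated cells, 3.57, 4.50 and 3.98 at 24 h and 3.42, 3.61 and 3.64 at 48 h. It was higher at 24 h in 3 of 3 runs, by 0.44, 1.31 and 0.42 (mean 0.72), and the groups met at 3.57. The exact permutation p was 0.2. When every gene was tested with no filter, the adjusted p was 0.202 (0.0535 with the run as a block). Without run 2 the mean difference was 0.43. At 48 h RXRB was 0.26 above untreated cells (exact permutation p = 0.2). The other 2 RXRB probe sets were background and had mean differences of 0.18 and −0.12 at 24 h, with no common sign over the runs.

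Thus 1 of the 6 genes other than CRYM was tested, and 0 passed at 24 h or at 48 h by limma, with unadjusted p of 0.143 and 0.342. Of all tested genes, 4.81% passed at 24 h and 4.44% at 48 h. The count was also 0 when all genes were tested with no filter, where RXRB had an unadjusted limma p of 0.0087 at 24 h.

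**Figure D2:**
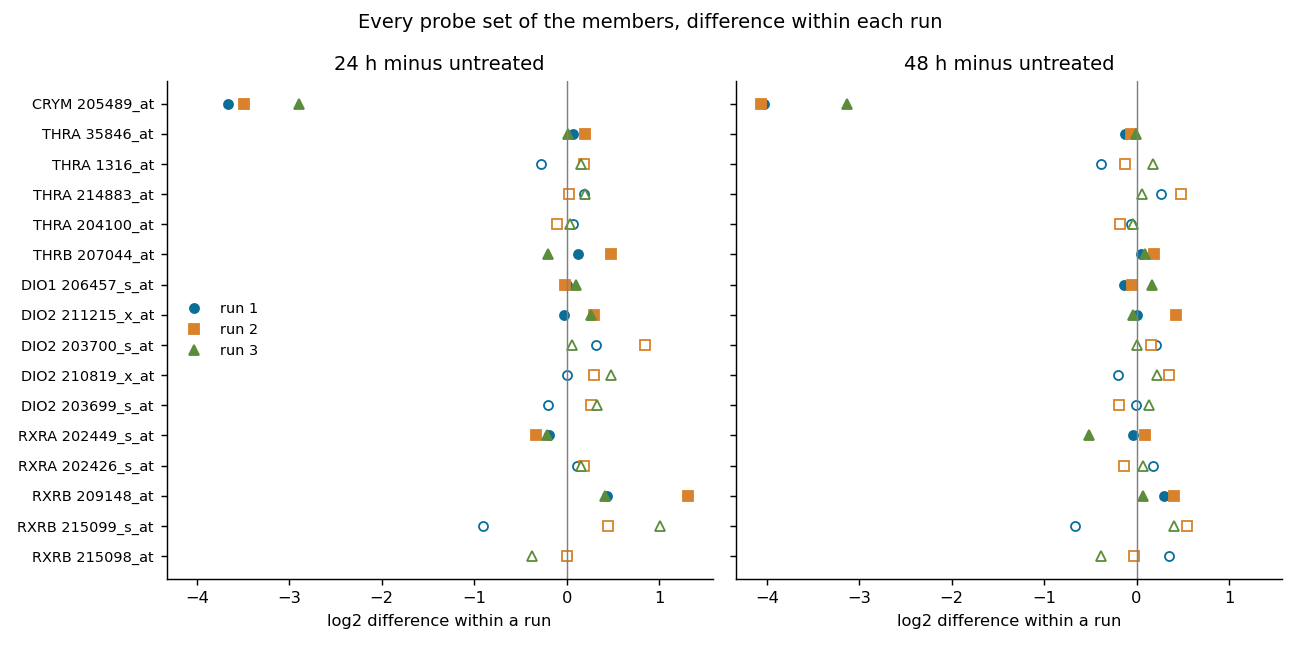
Log2 difference from untreated cells within each of the 3 runs (horizontal axis) at 24 h and 48 h, for the 16 probe sets of the 7 genes (vertical axis); filled symbols are the set that stands for the gene. CRYM lies between −2.90 and −4.06, and the brightest RXRB set reaches 1.31 in run 2 at 24 h.

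The other genes of the pathway were taken from 8 lists of 101 genes, of which 85 were on the array and 31 were tested. These lists too were chosen with earlier results of these data known. At 24 h 0 rose and 3 fell, 9.68% of those tested against 4.81% of all tested genes. At 48 h 0 rose and 2 fell, 6.45% against 4.44%. With the run as a block, which counts only differences within runs, 1 rose and 5 fell at 24 h, where 11.5% of all tested genes passed, and 2 rose and 2 fell at 48 h, where 10% passed. Between 48 h and 24 h none passed in either fit, as for all genes. The median log2 difference of the 31 genes was −0.07 at 24 h and 0.08 at 48 h.

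Among thyroid hormone transporters, 4 of 12 on the array were tested and 1 fell. SLCO4A1, an organic anion transporter that carries thyroid hormones, had 8.34, 8.40 and 8.57 in untreated cells, 6.61, 6.48 and 7.54 at 24 h and 6.83, 6.18 and 7.29 at 48 h. No treated array overlapped an untreated one, but how many of all genes separate in this way was not counted. It fell 2.94-fold at 24 h (−1.56 ± 0.325 SE, limma adjusted p = 0.0268) and 3.18-fold at 48 h (−1.67, adjusted p = 0.0187). Leaving out any 1 of the 3 untreated arrays or 48 h replicate 1 ended both calls (adjusted p = 0.0515 to 0.085 at 24 h and 0.052 to 0.0689 at 48 h). The 24 h call was also lost without 24 h replicate 1 (0.0691) or 2 (0.0897), and the 48 h call without 48 h replicate 2 (0.0585). Leaving out run 1 or run 2 ended both calls (adjusted p from 0.0891 to 0.295). The difference stayed between −1.93 and −1.36 whichever array or run was left out. These leave-out fits did not have the run as a block. With the block and all 9 arrays, the limma adjusted p was 0.00178 at 24 h and 0.00139 at 48 h.

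The amino acid exchanger SLC7A5, which also carries T3, had a mean of 5.25 at 24 h, against 4.19 in untreated cells. This difference of 1.06 ± 0.37 missed the threshold (adjusted p = 0.191), and SLC7A5 rose with the run as a block (adjusted p = 0.0259). Its partner chain SLC3A2 had a difference of 0.79 ± 0.403 (adjusted p = 0.386; 0.0503 with the block). SLCO4C1, a renal organic anion transporter, was at −0.30 (adjusted p = 0.584). The other 8 transporters on the array, among them SLC16A10 and SLC10A1, were below the filter.

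Of 11 coregulators of the receptors on the array, 9 were tested and 1 fell at both times. TBL1X is a subunit of the corepressor complex that unliganded thyroid hormone receptors hold. It had 7.04, 7.26 and 7.24 in untreated cells, 6.16, 6.45 and 6.28 at 24 h and 6.48, 6.37 and 6.41 at 48 h. The treated arrays lay below the untreated arrays without overlap, a separation whose share over all genes was not counted. It fell 1.85-fold at 24 h (−0.89 ± 0.131, adjusted p = 0.00467) and 1.70-fold at 48 h (−0.76, adjusted p = 0.0101). Both calls held without any 1 array. Without a whole run the 24 h call was lost for run 1 (adjusted p = 0.0928) and run 3 (0.114), and the 48 h call for each of the 3 runs (0.112 to 0.16). These fits too lacked the block, with which limma on all arrays gave an adjusted p of 0.00209 at 24 h and 0.00441 at 48 h. The other 4 TBL1X probe sets had mean differences from −0.78 to −0.43 at 24 h and from −0.74 to −0.43 at 48 h. Among them, the sets with untreated means of 3.10 and 2.48 were background. The set with an untreated mean of 6.77 overlapped at 24 h, and the set with 3.61 at 48 h.

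Its close relative TBL1XR1, named here after its value was seen, had a mean of 3.95 at 24 h, against 4.65 in untreated cells (−0.69, adjusted p = 0.147; 0.0178 with the block), and 4.78 at 48 h. The corepressor deacetylase HDAC3 was at 0.12 (adjusted p = 0.87) and −0.08 at 24 and 48 h. The coactivators MED1 (−0.03 and 0.10) and CREBBP (−0.07 and −0.03) did not pass at either time (adjusted p from 0.902 to 0.988).

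T3-responsive genes gave 1 call among 6 tested of 18 on the array. ATP1B1 encodes the beta subunit of the sodium pump, and had 9.98, 9.90 and 10.33 in untreated cells, 9.50, 9.27 and 9.09 at 24 h and 9.57, 9.57 and 9.41 at 48 h. It fell 1.72-fold at 24 h (−0.78 ± 0.163, adjusted p = 0.0267), and at 48 h the groups also did not overlap but the difference was not past the threshold (−0.56, adjusted p = 0.106). The share of all genes without overlap was not counted. Its second probe set had −0.72 at 24 h and −0.58 at 48 h. Without any 1 of 5 arrays the 24 h call was lost: untreated replicate 1 (adjusted p = 0.0702) or 3 (0.0665), 24 h replicate 2 (0.0815) or 3 (0.106), or 48 h replicate 1 (0.0527). It was also lost without any 1 run (0.112 to 0.246). Again these fits lacked the block, with which limma on all arrays gave an adjusted p of 0.0161 at 24 h and 0.0686 at 48 h. The other 5 tested genes of the list did not pass, among them malic enzyme ME1 (0.22 and 0.31 at 24 and 48 h), the mitochondrial carrier UCP2 (−0.31 and −0.14) and the calcium pump gene ATP2A2 (0.22 and 0.08), these 3 with adjusted p from 0.49 to 0.917. The lipogenic enzyme genes FASN (0.42 and 0.26, adjusted p = 0.342 and 0.696) and ACACA (0.28 and 0.35, adjusted p = 0.625 and 0.631) are named outside the rule, after their values were seen. KLF9, a transcription factor that T3 directly induces in many tissues, was background (means 2.89, 2.31 and 2.63 at 0, 24 and 48 h), as were PDK4, PCK1 and CPT1A.

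Proteins that bind thyroid hormone outside the nucleus gave no call among 4 tested of 8. Integrins alpha V and beta 3 form the cell surface site for thyroxine. ITGB3 had means of 5.70 at 48 h, against 4.90 in untreated cells (0.80 ± 0.202, adjusted p = 0.0582), and ITGAV had 9.49, against 8.79 (0.70, adjusted p = 0.297). Both rose at 48 h with the run as a block (adjusted p = 0.019 for each). Of 7 ITGB3 probe sets, 5 were background, and the other besides the brightest was 0.52 higher at 48 h without overlap. How many of all probe sets separate like this was not counted. The pyruvate kinase gene PKM, whose product binds T3, was at 0.00 and 0.05, and P4HB, a disulfide isomerase that binds T3, at 0.08 and 0.10. The carrier genes TTR, ALB and SERPINA7 were background.

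No gene for deiodinase synthesis and turnover passed among 4 tested of 6. WSB1 and MARCHF6 encode ubiquitin ligase components that act on DIO2, and USP33 a deubiquitinase that acts on it. Their differences at 24 h were −0.50, −0.10 and −0.49 (adjusted p = 0.282, 0.888 and 0.295). At 48 h they were 0.08, 0.25 and −0.18. SEPHS2, which makes the selenium donor for selenoproteins, was at −0.14 and −0.39 (adjusted p = 0.786 and 0.429). DIO3 was background, with means of 1.36, 1.28 and 1.37.

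Among other partners of the retinoid X receptors, 1 of 12 on the array was tested. PPARD, a fatty acid receptor, was at −0.07 and 0.25 (adjusted p = 0.922 and 0.76). The vitamin D receptor gene VDR was background, with means of 2.06, 2.82 and 2.53. RARA, PPARG and RXRG were background too.

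The remaining lists concern CRYM as an enzyme and as a crystallin by name. Of 5 genes of lysine and ketimine metabolism on the array, ALDH7A1 was tested and was at −0.42 and −0.27 (adjusted p = 0.238 and 0.561). Of 13 other genes named crystallin, 2 were tested. CRYZ, a quinone reductase, was at −0.56 ± 0.207 at 24 h (adjusted p = 0.211; it fell with the run as a block, adjusted p = 0.0253) and −0.36 at 48 h. CRYAB, a small heat shock protein, was at −0.03 and −0.10 (adjusted p = 0.962 and 0.917).

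**Figure D3:**
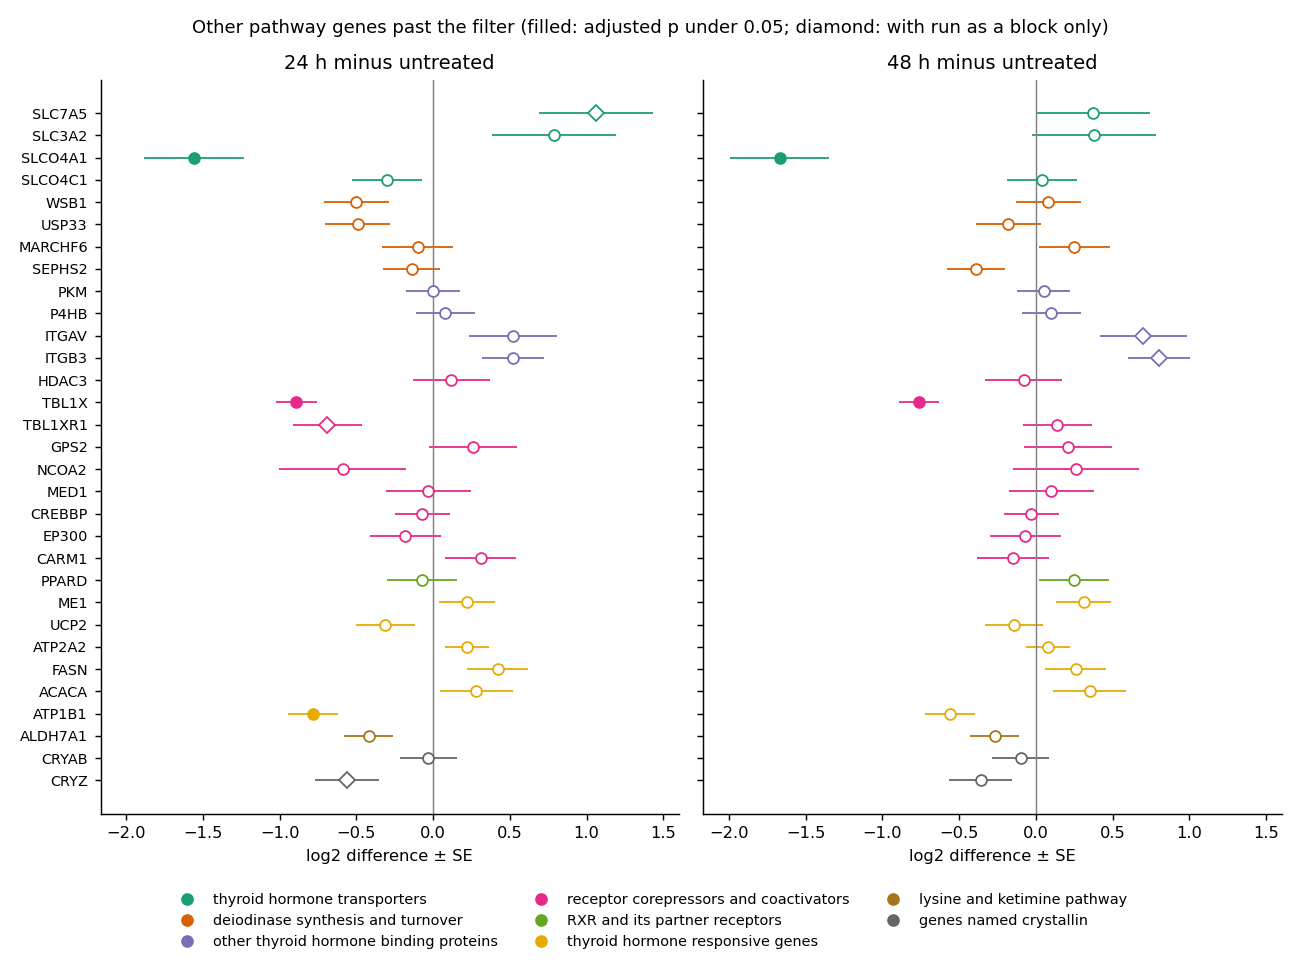
Log2 difference from untreated cells, with its SE (horizontal axis), for the 31 tested pathway genes (vertical axis, coloured by list) at 24 h and 48 h; filled points had an adjusted p under 0.05 and diamonds passed only with the run as a block. SLCO4A1 (−1.56 and −1.67) and TBL1X (−0.89 and −0.76) are filled at both times, and ATP1B1 (−0.78) at 24 h only.

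The genes most like CRYM over the 9 arrays were sought among the other 4367 tested genes by Pearson correlation, as a description. All arrays share the 3 groups and the 3 runs, so both enter the measure. Genes picked by it share the order of times and runs of CRYM in part through the choice itself. The 5 highest were GLRX (r = 0.978), which encodes the redox enzyme glutaredoxin, UXS1 (0.967), a UDP-xylose synthase, the respiratory chain gene COX7C (0.965), TAGLN3 (0.964) and the cell cycle ligase gene ANAPC13 (0.955). TAGLN3 had 5.40, 5.17 and 4.14 in untreated cells and from 3.30 to 3.71 on the treated arrays. Like CRYM it passed the filter only through the untreated arrays, so its likeness is in part tied to the filter. GLRX had 8.14, 7.92 and 7.58 in untreated cells, 7.0, 6.66 and 6.49 at 24 h and 6.79, 6.35 and 6.81 at 48 h. It followed the order of the runs seen for CRYM in untreated cells and at 24 h, with a smaller difference of −1.16 at 24 h.

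The 5 lowest correlations were those of the polarity gene DLG5 (−0.984), the matrix gene SPARC (−0.982), the actin-associated gene PALLD (−0.978), the matrix gene TGFBI (−0.970) and NRBF2 (−0.968). SPARC had 7.90, 8.22 and 8.41 in untreated cells, where CRYM ran in the opposite order, and 9.0, 9.24 and 9.51 at 24 h. Between CRYM and the other 6 genes of thyroid hormone signalling the correlation ranged from −0.656 for RXRB to 0.415 for RXRA.

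**Figure D4:**
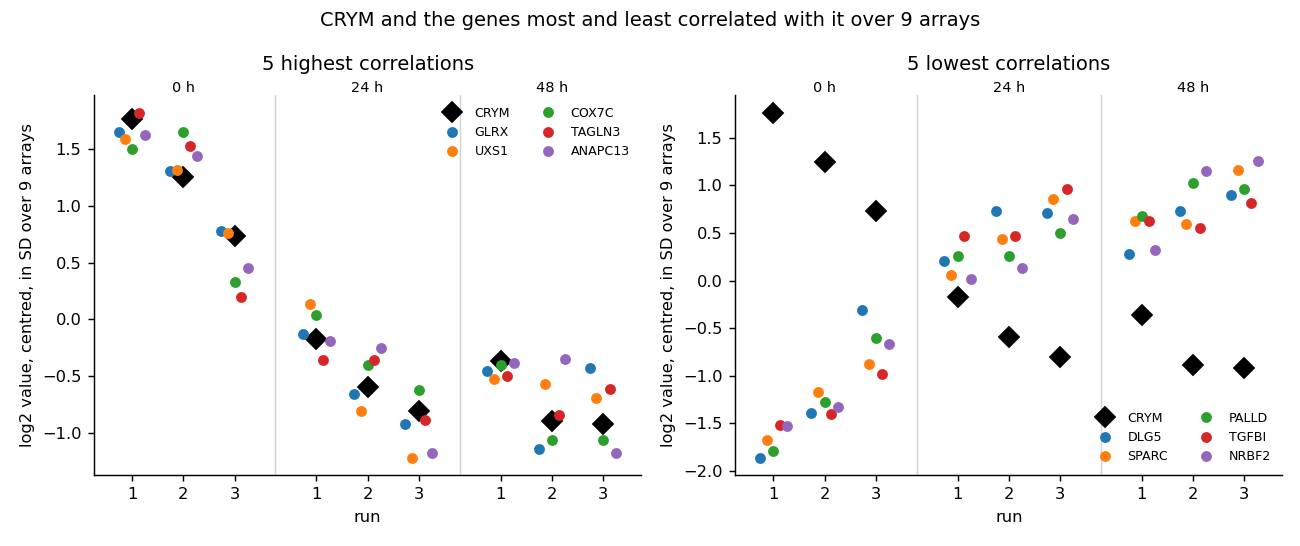
Log2 values centred on the gene's mean and divided by its SD over 9 arrays (vertical axis), for runs 1 to 3 within each time (horizontal axis), for CRYM and the 5 genes with the highest and the 5 with the lowest correlation. The genes with r of 0.955 or more follow CRYM between times, and in untreated cells all 5 were lowest in run 3, as CRYM was. Those with r of −0.968 or less mirror it. All were picked by their correlation over these same arrays, so the shared pattern follows from the choice, and for TAGLN3 in part from the filter.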

How the data were processed

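RNA of HK-2 cells from 3 runs at 3 times was measured on 9 arrays of 1 colour. The values the authors deposited are log2 values of 22277 probe sets, and per the submitters' processing notes GCRMA made them (version not given in the sources used here). GCRMA corrects background by probe sequence and normalizes between arrays. No detection calls were used, so levels near the array median cannot be told from background. The log base was read from the highest value of 12.5. Only probe sets with 1 gene symbol (19070) were named, with symbols updated through RefSeq gene IDs (19058 matched). The probe set with the highest mean stood for its gene.

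All 9 arrays were fitted in limma 3.58.1 (R 4.3.3) on 4368 genes, with Benjamini-Hochberg adjustment over all of them and a threshold of 0.05. On simulated data for 24 h against untreated with 4368 genes, 18.8% of genes with a log2 change of 0.5, 70% with a change of 1 and 94.7% with a change of 2 were called, so most changes of about 0.5 would be missed. Arrays of 1 replicate number deviated together (r from 0.378 to 0.662, against −0.526 to 0.185 for different numbers), so the numbers were taken as runs. The fit with the run as a block is printed where it changes a call and for some other genes. Fits that left out arrays or runs did not have the block. Replicates are runs of 1 cell line, and their number limits the precision. The 7 genes and the gene lists were chosen with earlier results of these data known. Up to 4 tested genes per list were named, those past the threshold first and then those with the highest mean; for likeness to CRYM, the 5 highest and 5 lowest correlations. Alternatives were the block, other filters, every probe set, 2 further normalizations, limma-trend and leaving out arrays or runs.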

Additional observations from a re-analysis of the deposited data

How the results depend on the processing

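Without 1 array or run the difference of CRYM lay between −3.84 and −2.87 at 24 h against untreated, between −4.23 and −3.25 at 48 h against untreated and between −0.73 and −0.06 at 48 h against 24 h. The count of the other 6 genes past the threshold stayed at 0 throughout. Only 1 of them, RXRA, was tested wherever a filter was used, and all 6 were tested only with no filter. The count of changed pathway genes was 3 at 24 h and 2 at 48 h, 6 and 4 with the replicate block, and from 0 to 3 and from 0 to 2 without 1 array or run. At 24 h it was 1 without untreated replicate 1 or 3, 24 h replicate 2 or 48 h replicate 1. At 48 h it was 1 without untreated replicate 1 or 3 or 48 h replicate 1 or 2. With run 1 left out it was 0 at both times, with run 2 left out 1 and 0, and with run 3 left out 1 and 1; these fits have fewer arrays. Without untreated replicate 2, SLC7A5 passed at 24 h and ITGB3 at 48 h, and SLCO4A1 did not. The block changed the calls of SLC7A5, TBL1XR1, CRYZ, ITGAV and ITGB3, as given above, and of no other member or pathway gene, and it gave 501 and 438 genes over all tested at 24 and 48 h, where the fit without it gave 210 and 194. Leaving out 1 array or run gave 34 to 213 and 33 to 206. With limma-trend ATP1B1 also passed at 48 h (adjusted p = 0.0365).

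Values near 0 that never passed changed sign without some array or run. For RXRA the range was −0.27 to 0.03 at 48 h and −0.07 to 0.29 for 48 h against 24 h. At 24 h the ranges were −0.25 to 0.07 for CREBBP, −0.16 to 0.15 for CRYAB, −0.06 to 0.36 for HDAC3, −0.28 to 0.21 for MARCHF6, −0.38 to 0.25 for MED1, −0.08 to 0.20 for P4HB, −0.10 to 0.15 for PKM and −0.21 to 0.12 for PPARD. At 48 h they were −0.03 to 0.15 for ATP2A2, −0.16 to 0.11 for CREBBP, −0.22 to 0.08 for CRYAB, −0.26 to 0.10 for HDAC3, −0.05 to 0.19 for MED1, −0.05 to 0.22 for P4HB, −0.03 to 0.16 for PKM, −0.19 to 0.30 for SLCO4C1, −0.28 to 0.00 for UCP2, −0.32 to 0.06 for USP33 and −0.25 to 0.32 for WSB1. Another scaling gave 0.01 for PKM at 24 h (arrays shifted to a common median) and 0.00 for SLCO4C1 at 48 h (quantile normalization); the cause was not tested. Genes at background could not be measured at any setting.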
